A study of Mus musculus with 4 samples.

Results

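The mRNAs of the urea cycle, the 8 genes *Nags*, *Cps1*, *Otc*, *Slc25a15*, *Ass1*, *Asl*, *Arg1* and *Slc25a13*, were examined in the livers of WT and *Usp21* KO mice. They were taken by gene symbol from a table of 35739 genes, and each of the 8 symbols matched 1 row. RNA-seq had been done on liver, with 1 library from each of 2 WT mice (numbered 2 and 3) and 2 *Usp21* KO mice (numbered 1 and 3). By the study's methods the mice were littermates of 10–11 weeks on a normal diet with 12 h of light, of a mixed C57BL/6 and 129/Sv origin. The KO allele had lost exons 3 and 4 of *Usp21*, which encodes a deubiquitylase, in all tissues. The floxed locus came from ES cells, the neo cassette had been removed by Flp, and Cre had then cut out the exons, so the animals carried a constitutive deletion and not a liver-specific one. The WT mice carried neither a deletion nor a treatment that the labels name. The comparison asks which of these mRNAs differed between the genotypes.

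The urea cycle turns toxic ammonia into urea and runs mainly in periportal hepatocytes of the liver lobule. Its first steps lie in the mitochondrion. N-acetylglutamate synthase (*Nags*) makes the activator that carbamoyl phosphate synthetase 1 (*Cps1*) needs, *Cps1* fixes ammonia as carbamoyl phosphate, and ornithine transcarbamylase (*Otc*) joins it to ornithine to give citrulline. The carrier ORNT1 (*Slc25a15*) exchanges ornithine and citrulline across the inner membrane. In the cytosol, argininosuccinate synthase (*Ass1*) joins citrulline to aspartate, argininosuccinate lyase (*Asl*) releases arginine, and arginase 1 (*Arg1*) splits arginine into urea and ornithine. The aspartate is exported from mitochondria by citrin (*Slc25a13*).

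By GENCODE M21 (mouse build GRCm38) the 8 genes are on 8 chromosomes. *Nags* lies on chromosome 11 from 102145513 to 102149477 (forward strand), *Cps1* on chromosome 1 from 67123026 to 67231259 (forward), *Otc* on chromosome X from 10252305 to 10321024 (forward) and *Slc25a15* on chromosome 8 from 22375551 to 22398597 (reverse). *Ass1* lies on chromosome 2 from 31470207 to 31520672 (forward), *Asl* on chromosome 5 from 130011258 to 130029247 (reverse), *Arg1* on chromosome 10 from 24915221 to 24927484 (reverse) and *Slc25a13* on chromosome 6 from 6041218 to 6217173 (reverse). *Cps1* is on the same chromosome as *Usp21*, 104.1 Mb from it. The genes differ in size, from 4.0 kb and 7 exons for *Nags* to 176.0 kb and 18 exons for *Slc25a13*, and *Cps1*, with 38 exons, has the longest coding sequence (1500 codons).

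RefSeq promoter windows (GRCm38.p6, from 250 bases before to 50 bases after a start) were found for *Otc*, *Ass1*, *Nags*, *Slc25a13* and *Slc25a15*, and not for *Cps1*, *Asl* and *Arg1*. The stretches upstream of the starts of *Otc*, *Slc25a15* and *Slc25a13* are shown because these are the 3 genes whose WT and KO libraries did not overlap. Such genes made up 34.4% (KO higher) and 10.9% (KO lower) of all tested genes. The stretches are written 5′ to 3′ on the strand of the gene.
Otc, chrX:10252055-10252229, forward: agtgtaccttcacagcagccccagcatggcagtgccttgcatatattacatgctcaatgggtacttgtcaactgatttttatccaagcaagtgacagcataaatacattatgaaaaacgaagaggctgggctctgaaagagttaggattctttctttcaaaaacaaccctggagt
Slc25a15, chr8:22398622-22398871, reverse: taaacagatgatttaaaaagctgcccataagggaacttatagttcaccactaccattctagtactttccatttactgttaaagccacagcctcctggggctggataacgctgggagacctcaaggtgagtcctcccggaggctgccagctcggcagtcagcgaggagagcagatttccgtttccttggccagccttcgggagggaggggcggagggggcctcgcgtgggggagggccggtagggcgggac
Slc25a13, chr6:6217305-6217423, reverse: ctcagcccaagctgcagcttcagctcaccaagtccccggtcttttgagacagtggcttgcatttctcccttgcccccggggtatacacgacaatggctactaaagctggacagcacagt

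The windows were searched on both strands for 3 motifs of factors described for urea cycle genes, AAAGTNCA for HNF4, TTGCNNAA for C/EBP and TGACG for CREB, and no matches overlapped. HNF4 letters were present in 4.12%, C/EBP letters in 10.8% and CREB letters in 20.8% of all 32851 windows. The *Otc* window held the HNF4 letters 68 bases before the start that defines the window, and that of *Slc25a13* held the CREB letters 13 bases before it. Each match lies past the end of the stretch shown above, after an earlier annotated start of its gene. Both are shown with the match in capitals.
Otc, chrX:10252226-10252255, forward: gagttaggcttAAAGTTCAagtgcccctgc
Slc25a13, chr6:6217170-6217199, reverse: ccagccaatgggcTGACGgcacccgcatga
The *Nags* window held the CREB letters in reverse orientation 31 bases after the start, and those of *Ass1* and *Slc25a15* held none of the motifs. The windows also differed in base composition, from 44.3% GC and 1 CpG for *Otc* to 79% GC and 51 CpG for the second start of *Slc25a15*, against medians of 52.7% and 7 over all windows. These matches describe letters only.

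Levels are given as TPM (a share of the library corrected for transcript length), so that genes can be set against each other. *Ass1* had the highest mean over the 4 libraries, 2197 TPM ± 674 (SD, n = 4), followed by *Arg1* at 826 ± 190, *Cps1* at 469 ± 99.8 and *Asl* at 372 ± 91.2. *Otc* followed at 224 ± 58, and the carriers *Slc25a15* (84.2 ± 20.1) and *Slc25a13* (69.2 ± 9.56) were lower, with *Nags* lowest at 23.5 ± 7.5. The order was thus that of the cytosolic enzymes and *Cps1* over *Otc*, the carriers and the activator-making enzyme. Among neighbours in this order, the ranges were apart between *Ass1* and *Arg1*, between *Otc* and *Slc25a15*, and between *Slc25a13* and *Nags*. The other neighbours overlapped. *Cps1* exceeded *Asl* in 3 of 4 libraries, and *Slc25a15* exceeded *Slc25a13* in 2 of 4, both KO. *Ass1* shares 43.1% of its 31-base stretches with the processed pseudogene *Gm5424* (chromosome 10, 62071123 to 62072362), which was listed at 0.879 to 2.54 TPM, so the split between them is uncertain. For the other members the shared part was at most 0.765%.

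**Figure D1:**
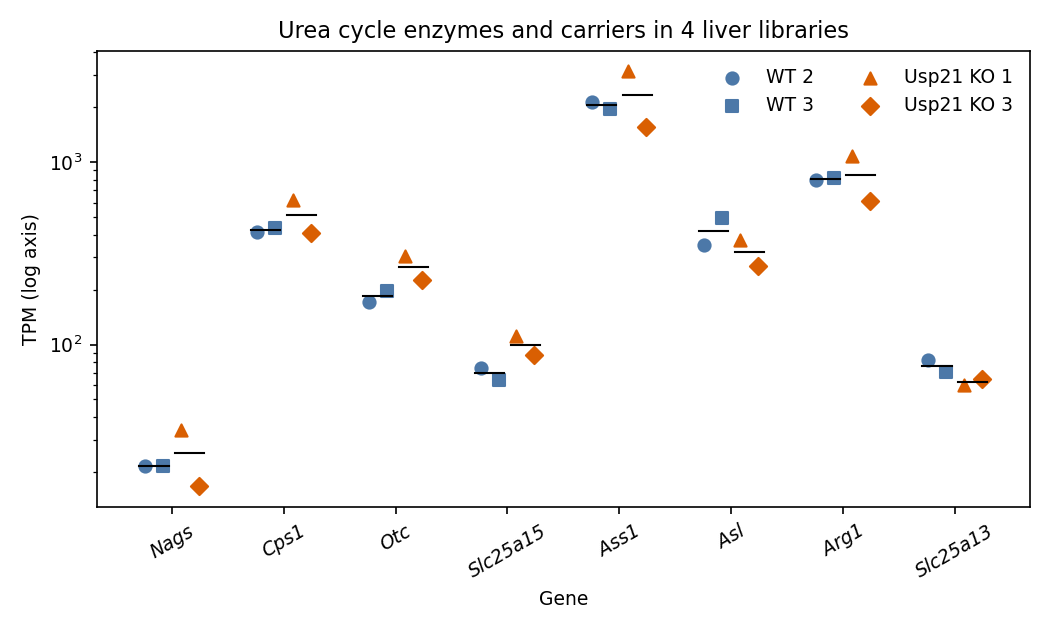
TPM (log axis) of the 8 members in the 4 libraries, 1 point per library, with WT in blue, *Usp21* KO in orange and a black bar at the mean of each genotype. KO replicate 1 is the highest point for 6 genes (45.9% of all tested genes) and KO replicate 3 the lowest for 5 (22.9%). The WT and KO points separate for *Otc* and *Slc25a15*, with KO higher (34.4% of tested genes), and for *Slc25a13*, with KO lower (10.9%).

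The targeted gene was lower in both KO libraries than in either WT library, as were 10.9% of tested genes. *Usp21* had 4.07 and 6.29 TPM in WT livers, against 1.64 and 2.93 TPM in KO livers, a log2 fold change of -0.92 ± 0.33 (SE, limma on log2(TPM + 1), n = 2 per genotype, adjusted p = 0.464). The TPM of a gene covers all its exons, so any RNA left from the deleted allele would be counted too. Whether such RNA was present was not tested. Hepatocyte markers such as *Alb* (27475 to 43181 TPM) were abundant in each library, and the sum of the 6 markers was 91161 and 74923 (WT) and 77016 and 65550 TPM (KO). Of 4 pancreas markers 3 were at 0 in each library and *Cela2a* was at 0.258 to 1.22 TPM, and of 3 adipose markers *Retn* was at 0 throughout and the list summed to at most 0.822 TPM. The sum of 5 bile duct markers, mostly *Spp1*, was 14.6 and 15.9 TPM in the WT mice against 37.9 and 24.5 TPM in the KO mice. *Krt19* was also higher in both KO libraries (at most 1.28 TPM), while *Epcam*, *Sox9* and *Krt7* overlapped. *Krt7* was 0.33 and 0.358 (WT) and 0.469 and 0 TPM (KO). The sum of 5 stellate cell markers, mostly *Dcn*, was 53.5 and 41.4 TPM in WT livers, against 77.5 and 60 TPM in KO livers. *Reln* was also higher in both KO libraries, while *Lrat*, *Des* and *Col1a1* overlapped. In bulk liver, fewer cells of a type and less RNA per cell cannot be told apart.

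Between the genotypes, the members that stood highest in KO relative to WT were *Otc* and its partner carrier *Slc25a15*, by about the same amount, while *Slc25a13* was lower in both KO libraries, and the libraries of the other 5, *Asl* among them, overlapped. No member passed the adjusted threshold. Of 8 members, 0 had an adjusted p under 0.05 (limma, two-sided, Benjamini-Hochberg over 9581 genes), against 0.0835% of all tested genes, and 1 (*Slc25a15*) had an unadjusted p under 0.05, against 10.5% of tested genes in either direction and 8.45% higher in KO. None differed by 2-fold or more, against 3.68% of tested genes. The median log2 fold change of the members was 0.13, with 6 higher and 2 lower in KO, beside 0.15 over all tested genes (6394 higher, 3187 lower). The groups did not overlap, with KO higher, for 2 members, against 34.4% of tested genes, and with KO lower for 1 member, against 10.9%. With 8 members, these counts are not far from the shares of the whole table and are no result about the members. Where libraries were rescaled to a common upper quartile, the median of all genes moved from 0.15 to 0.04 and the members split into 4 higher and 4 lower.

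*Nags* mRNA was 21.6 and 21.5 (WT) and 34.2 and 16.7 TPM (KO). The WT pair lay between the KO values, and the difference was within the spread between the KO mice (log2 fold change 0.14 ± 0.34, SE, limma adjusted p = 0.886, 95% confidence interval -0.71 to 1.00). Without KO replicate 1 the sign turned (-0.35). The antisense gene *Gm11586* (chromosome 11, 102145549 to 102146246) overlaps the start of *Nags*. It was not listed in the TPM table, and whether the reads were counted by strand is not given in the sources used here.

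*Cps1*, which commits ammonia to the cycle, was 414 and 434 TPM in the WT mice against 617 and 409 TPM in the KO mice. KO replicate 1 was above and KO replicate 3 just below both WT values (0.24 ± 0.24, SE, limma adjusted p = 0.708, 95% confidence interval -0.35 to 0.84). Its log2 fold change was -0.05 without KO replicate 1.

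*Otc* was 170 and 197 TPM in WT livers, against 304 and 225 TPM in KO livers. Both KO values were above both WT values, at group means of 265 ± 55.8 (SD, n = 2) and 184 ± 19.5 TPM. The log2 fold change was 0.51 ± 0.21 (SE, limma adjusted p = 0.478), with a 95% confidence interval of -0.01 to 1.04. It stayed above 0 when any library was left out, from 0.30 without KO replicate 1 to 0.73 without KO replicate 3. Of the 5 members with a promoter window, only *Otc* held the HNF4 letters shown above, and their part in its values was not tested.

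*Slc25a15*, the carrier that brings ornithine to *Otc* and takes citrulline away, was 74.8 and 63.9 (WT) and 111 and 87.3 TPM (KO). Again both KO values were above both WT values, at means of 99 ± 16.6 (SD, n = 2) and 69.4 ± 7.7 TPM. The log2 fold change was 0.50 ± 0.20 (SE, limma adjusted p = 0.472), with a 95% confidence interval of 0.01 to 0.99, and ran from 0.33 without KO replicate 1 to 0.67 without KO replicate 3. Its unadjusted p was no longer under 0.05 with upper quartile scaling, with unmoderated variances, or without WT replicate 2, WT replicate 3 or KO replicate 1. The bile duct and stellate cell marker sums given above, mostly *Spp1* and *Dcn*, were also higher in both KO libraries, though other markers of both lists overlapped. Their part in the *Otc* and *Slc25a15* values was not tested.

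*Ass1*, the most abundant member, was 2137 and 1960 TPM in the WT mice against 3138 and 1551 TPM in the KO mice. The KO libraries lay on either side of the WT pair and differed from each other 2.02-fold (0.11 ± 0.36, SE, limma adjusted p = 0.921, 95% confidence interval -0.78 to 1.00). The log2 fold change turned to -0.40 without KO replicate 1 and to -0.03 with upper quartile scaling.

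*Asl* was 350 and 492 TPM in WT livers, against 374 and 271 TPM in KO livers. It was the only member with its highest value in WT replicate 3, and KO replicate 1 lay inside the WT range (-0.38 ± 0.26, SE, limma adjusted p = 0.597, 95% confidence interval -1.02 to 0.26). Leaving out WT replicate 3 gave a difference of -0.13, and leaving out WT replicate 2 gave -0.62. WT replicate 3 also had the highest sum of 4 neutrophil markers, 43.4 TPM against 1.85 to 4.38 TPM in the other libraries. The sum came mostly from *S100a8* (29.1 TPM) and *S100a9* (12.7 TPM), *Ly6g* was at 1.38 TPM there and at 0 elsewhere, and *Elane* was at most 0.262 TPM in each library. Their part in the *Asl* value was not tested.

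*Arg1*, which releases urea, was 802 and 813 (WT) and 1076 and 613 TPM (KO). The WT libraries were nearly equal while the KO libraries lay above and below them (0.01 ± 0.29, SE, limma adjusted p = 0.991, 95% confidence interval -0.73 to 0.74). Its sign turned to -0.40 without KO replicate 1, to -0.13 with upper quartile scaling and to -0.03 when the 10 most abundant genes were left out of the library total.

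*Slc25a13*, the aspartate carrier, was 82 and 70.4 TPM in the WT mice against 60.1 and 64.3 TPM in the KO mice. Both KO values were below both WT values, at means of 62.2 ± 2.97 (SD, n = 2) and 76.2 ± 8.26 TPM, and this member had the tightest KO pair. The log2 fold change of -0.29 ± 0.17 (SE, limma adjusted p = 0.557) had a 95% confidence interval of -0.71 to 0.14. It ran from -0.40 without WT replicate 3 to -0.18 without WT replicate 2.

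**Figure D2:**
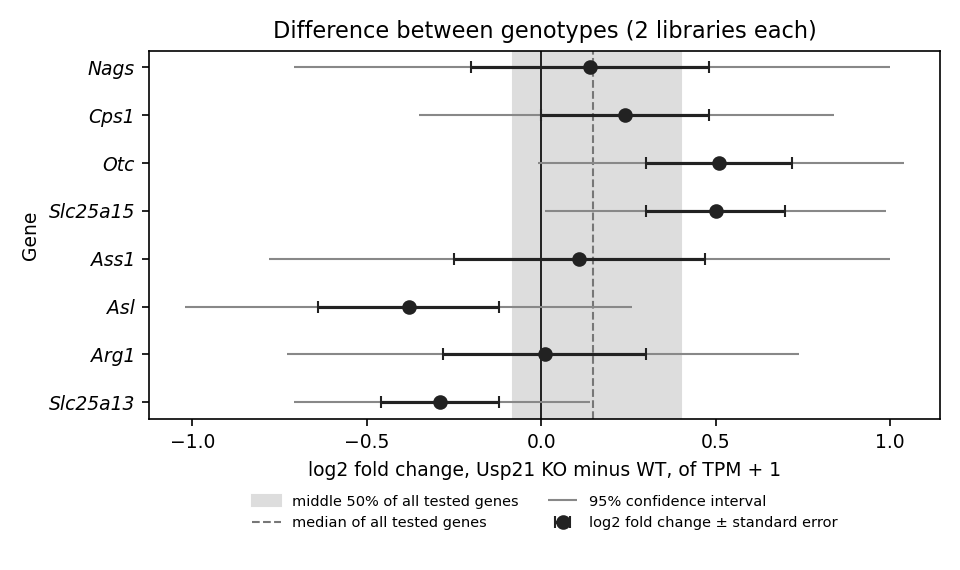
log2 fold change (*Usp21* KO minus WT) of TPM + 1 for each member, with the standard error (capped bars) and 95% confidence interval (thin lines), 2 libraries per genotype. The grey band is the interquartile range of all 9581 tested genes, -0.08 to 0.40, and the dashed line their median of 0.15. The interval of *Slc25a15* alone, 0.01 to 0.99, lies above 0, which does not hold with upper quartile scaling, unmoderated variances or without any of 3 of the 4 libraries, and the 2 members below the band are *Asl* and *Slc25a13*.

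The KO mice differed from each other more than the WT mice did in 6 of 8 members, and not in *Asl* and *Slc25a13*. The 8 mRNAs summed to 4051 and 4052 TPM in the WT libraries, 5715 TPM in KO replicate 1 and 3238 TPM in KO replicate 3. They made up 0.406% of all TPM in each WT library, 0.573% in KO replicate 1 and 0.324% in KO replicate 3, and *Ass1* gave 47.9% to 54.9% of the sum. The KO sums thus enclosed the WT sums. These were almost equal although single members differed in opposite directions, with *Ass1* at 2137 and 1960 TPM and *Asl* at 350 and 492 TPM in the WT mice. KO replicate 1 held the highest value of 6 of 8 members, against 45.9% of tested genes, and KO replicate 3 the lowest value of 5, against 22.9%. The median log2 difference of KO replicate 1 over KO replicate 3 was 0.53 (range -0.10 to 1.02, above 0 in 7 of 8 members), beside 0.14 over all tested genes (interquartile range -0.12 to 0.41). WT replicate 2 over WT replicate 3 gave a median of -0.01 (-0.49 to 0.22). In absolute size the members' median difference was 0.53 between the KO mice, 0.17 between the WT mice and 0.27 between the genotype means, beside 0.29, 0.24 and 0.26 over all tested genes. A difference between 2 means varies less by construction than that between 2 single libraries. The KO pair differed more than the genotype means in 5 of 8 members, and less in *Otc*, *Slc25a15* and *Slc25a13*. With 2 mice per genotype the spread within KO was not tested.

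**Figure D3:**
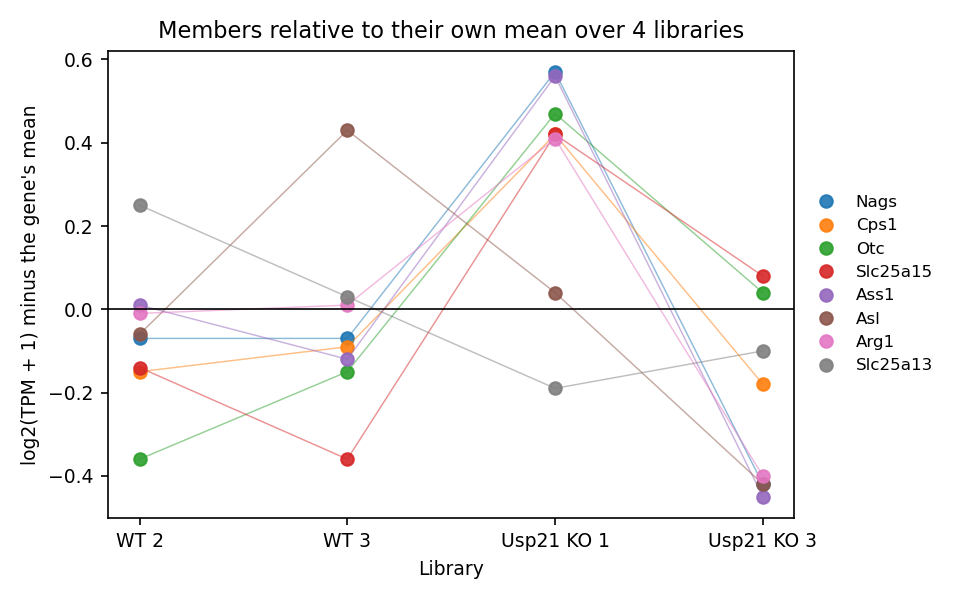
log2(TPM + 1) of each member minus its own mean over the 4 libraries, with thin lines that join the points of a gene and imply no order of the libraries. The mean of the members is -0.07 in WT replicate 2, -0.04 in WT replicate 3, 0.34 in KO replicate 1 and -0.23 in KO replicate 3, and *Slc25a13* and *Asl* lie below the other 6 in KO replicate 1.

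Markers of liver macrophages (Kupffer cells) ran the other way. Their sum was 88.5 and 100 TPM in WT, 51.6 TPM in KO replicate 1 and 135 TPM in KO replicate 3, and all 6 markers were lower in KO replicate 1 than in KO replicate 3, with none at 0. For example *Cd5l*, a macrophage-secreted protein, was 11.4 against 45.5 TPM, and *Clec4f*, a Kupffer cell lectin, 30 against 58 TPM. The part of this difference in the members' values was not tested. The hepatocyte sum was 77016 TPM in KO replicate 1 and 65550 TPM in KO replicate 3. Endothelial markers summed to 31.6 to 49.6 TPM, red cell markers to 719 to 911 TPM (lowest in KO replicate 3) and lymphocyte markers to 1.7 to 3.25 TPM.

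The genes whose profile over the 4 libraries was nearest the members' mean profile, by the root mean square difference of centred log2(TPM + 1) among 1356 genes whose mean reached 50 TPM, were *Rpl26*, *Prdx2*, *Ndufc2*, *Cpn2* and *Vtn*, at 0.0268 to 0.0346. *Rpl26*, which encodes a ribosomal protein, was 379 and 395 TPM in WT livers, against 501 and 353 TPM in KO livers. *Vtn*, which encodes the plasma protein vitronectin, was 1349 and 1324 (WT) and 1725 and 1227 TPM (KO). Each of the 5 was highest in KO replicate 1 and lowest in KO replicate 3, which follows from their choice by closeness to the mean profile. Of the members themselves, 4 had both their highest value in KO replicate 1 and their lowest in KO replicate 3.

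Ratios within a library do not depend on how the library was scaled. They were chosen with the values known and are given as a description. The ratio of the ornithine carrier *Slc25a15* to the aspartate carrier *Slc25a13* was 0.91 in both WT libraries and 1.84 and 1.36 in the KO libraries, a log2 difference of 0.80. *Otc* to *Cps1*, consecutive mitochondrial steps, was 0.41 and 0.45 in WT and 0.49 and 0.55 in KO. In both ratios the KO libraries were above the WT libraries. For the carriers this follows from their single values, with *Slc25a15* above and *Slc25a13* below WT in both KO libraries. The summed mitochondrial enzymes over the summed cytosolic enzymes gave 0.18 and 0.20 in WT and 0.21 and 0.27 in KO. The ratios *Asl* to *Ass1* (0.16, 0.25, 0.12 and 0.17, in the order WT 2, WT 3, KO 1 and KO 3) and *Arg1* to *Ass1* (0.38, 0.41, 0.34 and 0.40) overlapped. So did *Slc25a15* to *Otc* (0.44, 0.32, 0.36 and 0.39) and *Nags* to *Cps1* (0.05, 0.05, 0.06 and 0.04).

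**Figure D4:**
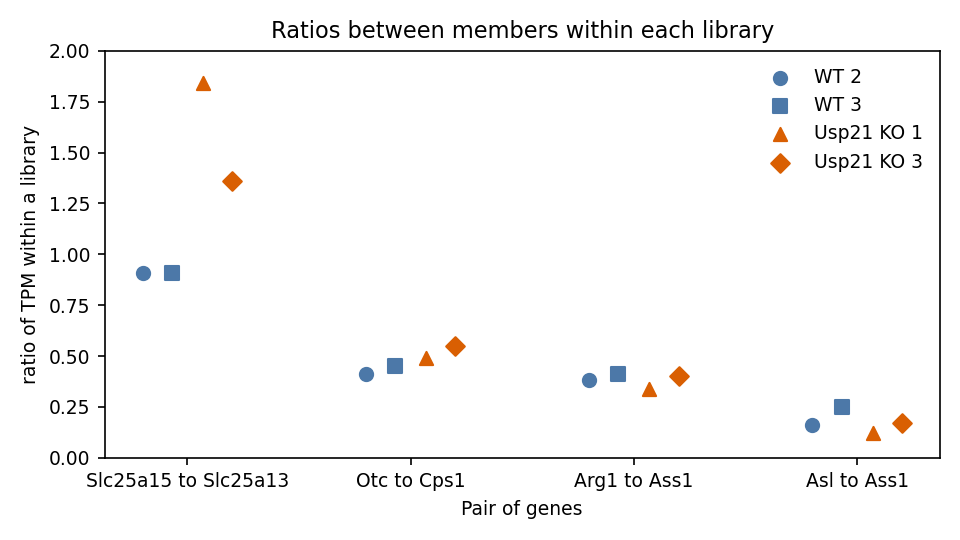
Ratio of TPM within each library for 4 pairs of members, 1 point per library (WT blue, *Usp21* KO orange). The carrier ratio *Slc25a15* to *Slc25a13* is 0.91 in both WT libraries and 1.36 and 1.84 in the KO libraries, while *Arg1* to *Ass1* stays between 0.34 and 0.41.

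Genes around the cycle were then examined in 8 lists, some of which share genes. No gene of these lists had an adjusted p under 0.05 (limma), so the calls below rest on the unadjusted p, which 10.5% of all tested genes passed. Among the genes of ammonia release and glutamate metabolism, 2 of 16 tested were higher and 2 lower at p under 0.05, with a list median of 0.30. *Got1*, the cytosolic aspartate aminotransferase, was 98.1 and 83.8 TPM in the WT mice against 263 and 150 TPM in the KO mice (log2 fold change 1.13 ± 0.29, SE, limma adjusted p = 0.464). *Gpt*, the cytosolic alanine aminotransferase, was 194 and 232 (WT) and 157 and 118 TPM (KO), at a log2 fold change of -0.64 ± 0.21 (SE, limma adjusted p = 0.464), and *Prodh*, which starts proline breakdown, was 60.8 and 102 TPM in the WT mice against 54.7 and 37.5 TPM in the KO mice. *Got1* was above and *Gpt* below WT in both KO libraries, while the other transaminases of the list, *Got2*, *Gpt2* and *Agxt* (named after their values were seen), overlapped between the genotypes. Without KO replicate 1 the list median was -0.03, with 1 gene higher and 1 lower. Without WT replicate 3 the calls were 1 higher and 0 lower, without KO replicate 3 they were 5 higher and 0 lower, upper quartile scaling gave 1 higher and 2 lower, and unmoderated variances 1 higher and 0 lower.

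In the aspartate and malate shuttle, which feeds the aspartate that *Ass1* uses, 2 of 7 genes were higher and 0 lower at p under 0.05, with a median of 0.24. These were *Got1* and *Fh1*, the fumarase that takes up the fumarate released by *Asl*, at 106 and 128 TPM in WT livers, against 255 and 149 TPM in KO livers (0.74 ± 0.29, SE, limma adjusted p = 0.472). *Mdh1*, cytosolic malate dehydrogenase, was 379 and 348 (WT) and 409 and 348 TPM (KO), with a log2 fold change of 0.05. With upper quartile scaling the calls were 1 higher and 1 lower, and *Fh1* was not among them. Without WT replicate 3, or with unmoderated variances, there were 0, and without WT replicate 2 there was 1 higher. The list median was 0.04 without KO replicate 1, and the log2 fold change of *Fh1* ran from 0.35 to 1.12 over the libraries left out.

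In the transport of nitrogen compounds, 2 of 10 tested genes (of 13 listed) were higher and 1 lower, with a median of 0.10. *Slc25a22*, a mitochondrial glutamate carrier, was 52.9 and 27.3 TPM in the WT mice against 102 and 86.8 TPM in the KO mice (1.28 ± 0.33, SE, limma adjusted p = 0.464). *Slc7a2*, a cationic amino acid transporter that takes up arginine and ornithine, was 45.4 and 35.1 TPM in WT livers, against 78.3 and 58.4 TPM in KO livers (0.75 ± 0.23, SE, limma adjusted p = 0.464). *Slc38a3*, the glutamine transporter SNAT3, was 485 and 491 (WT) and 308 and 268 TPM (KO), at a log2 fold change of -0.76 ± 0.17 (SE, limma adjusted p = 0.443). It had the smallest p of the 8 lists. Upper quartile scaling gave 2 higher and 2 lower, as did leaving out KO replicate 1, and without WT replicate 3 there were 1 higher and 2 lower. Unmoderated variances gave 0 higher and 1 lower. Leaving out WT replicate 3 turned the list median to -0.01, and leaving out KO replicate 3 or scaling by the upper quartile turned it to -0.03.

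Among the genes of arginine and ornithine use, 0 of 9 tested (of 13) were higher and 1 lower, with a median of -0.23. *Gamt*, which makes creatine from an arginine-derived precursor, was 231 and 225 TPM in the WT mice against 154 and 105 TPM in the KO mice (-0.84 ± 0.23, SE, limma adjusted p = 0.464). *Oaz1* (antizyme, a brake on polyamine synthesis) was 488 and 417 TPM in WT livers, against 433 and 459 TPM in KO livers, and *Oat* (ornithine aminotransferase) 391 and 243 (WT) and 388 and 178 TPM (KO). Both overlapped between the genotypes. The arginase of other tissues, *Arg2*, was at 0 in 3 libraries and at 0.167 TPM in KO replicate 1. Upper quartile scaling gave 3 lower, leaving out KO replicate 1 gave 2, and leaving out either WT library or using unmoderated variances gave 0. The list median was -0.11 without KO replicate 1.

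Regulators described for urea cycle genes gave 4 of 11 higher and 0 lower, with a median of 0.42. *Hnf4a*, a nuclear receptor of hepatocytes, was 112 and 105 TPM in the WT mice against 171 and 155 TPM in the KO mice (0.59 ± 0.16, SE, limma adjusted p = 0.464). *Klf15*, a fasting-responsive factor of amino acid breakdown, was 56.4 and 56.7 TPM in WT livers, against 81.2 and 95.5 TPM in KO livers (0.63 ± 0.17, SE, limma adjusted p = 0.464). *Foxo1*, an insulin-restrained factor, was 3.55 and 4.95 (WT) and 6.47 and 7.74 TPM (KO), and *Creb1*, the cAMP-responsive factor, was 0.681 and 1.12 TPM in the WT mice against 2.59 and 2.12 TPM in the KO mice. In the whole table, 8.45% of tested genes were higher at this threshold. The groups did not overlap for these 4 genes, as for 34.4% of tested genes, and their choice by p favours this. The number of higher calls was 3 with upper quartile scaling, 1 without WT replicate 2 (with 1 lower), 2 without WT replicate 3 or without KO replicate 1, and 6 without KO replicate 3. Unmoderated variances gave 2 higher and 1 lower. A pseudocount of 5 gave 3 higher, and the filter at a mean of 5 TPM gave 2 of 9, each with 0 lower. The list median was 0.15 without KO replicate 1. *Cebpb*, named after its values were seen, had its highest level in WT replicate 3 (156 TPM against 51.7 to 81.9 TPM), the library with the highest *Asl*. Its libraries overlapped between the genotypes (-0.18 ± 0.50, SE, limma adjusted p = 0.902), and a link to *Asl* was not tested.

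None of the 4 genes of cofactor supply and protein modification passed p under 0.05, and their median was -0.06. *Lonp1* (a mitochondrial protease) was 35.8 and 36.4 TPM in WT livers, against 37 and 36.7 TPM in KO livers, *Sirt3* (a mitochondrial deacetylase) 45.3 and 39.4 (WT) and 41.8 and 42.9 TPM (KO), and *Car5a* (the carbonic anhydrase that supplies bicarbonate to *Cps1*) 30.2 and 37.1 TPM in the WT mice against 33.8 and 27.4 TPM in the KO mice. *Sirt3* and *Car5a* overlapped between the genotypes, and the log2 fold change of *Lonp1* was 0.03 ± 0.16 (SE).

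The cycle is periportal, while glutamine synthesis takes up the remaining ammonia near the central vein. Of 8 periportal genes, 8 had log2 fold changes above 0, 4 without overlap (34.4% of tested genes), 0 at p under 0.05, with a median of 0.33. *Pck1*, the gluconeogenic enzyme, was 476 and 560 TPM in WT livers, against 581 and 853 TPM in KO livers, *Cyp2f2* was 583 and 462 (WT) and 515 and 653 TPM (KO), and *Hsd17b13*, a lipid droplet protein, was 306 and 337 TPM in the WT mice against 408 and 373 TPM in the KO mice. Of 7 tested pericentral genes (of 9), 6 were below 0, 5 without overlap (10.9% of tested genes), 0 at p under 0.05, with a median of -0.34. *Cyp2e1* was 4802 and 3150 TPM in WT livers, against 3106 and 3041 TPM in KO livers, *Cyp1a2* was 302 and 244 (WT) and 239 and 208 TPM (KO), and *Oat* is given above. *Glul*, glutamine synthetase, named after its values were seen, was 294 and 192 TPM in the WT mice against 157 and 182 TPM in the KO mice (-0.49 ± 0.25, SE, limma adjusted p = 0.512). The pericentral gene above 0 was *Tbx3*, a transcription factor named after its values were seen, at 1.94 and 1.32 (WT) and 4.48 and 2.55 TPM (KO). Of all tested genes, 66.7% were above 0. The medians of the 2 lists had opposite signs, but the difference between them was not tested. Leaving out a library moved the pericentral median from -0.13 (without WT replicate 2) to -0.64 (without WT replicate 3). The periportal genes above 0 were 6 of 8 without WT replicate 3, KO replicate 1 or KO replicate 3. With upper quartile scaling they were 7 of 8, and 1 pericentral gene was lower at p under 0.05. Without KO replicate 3, 3 periportal genes and 1 pericentral gene were higher at p under 0.05. Without WT replicate 3, 2 pericentral genes were lower, and without KO replicate 1, 1 periportal gene was higher and 1 pericentral gene lower.

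**Figure D5:**
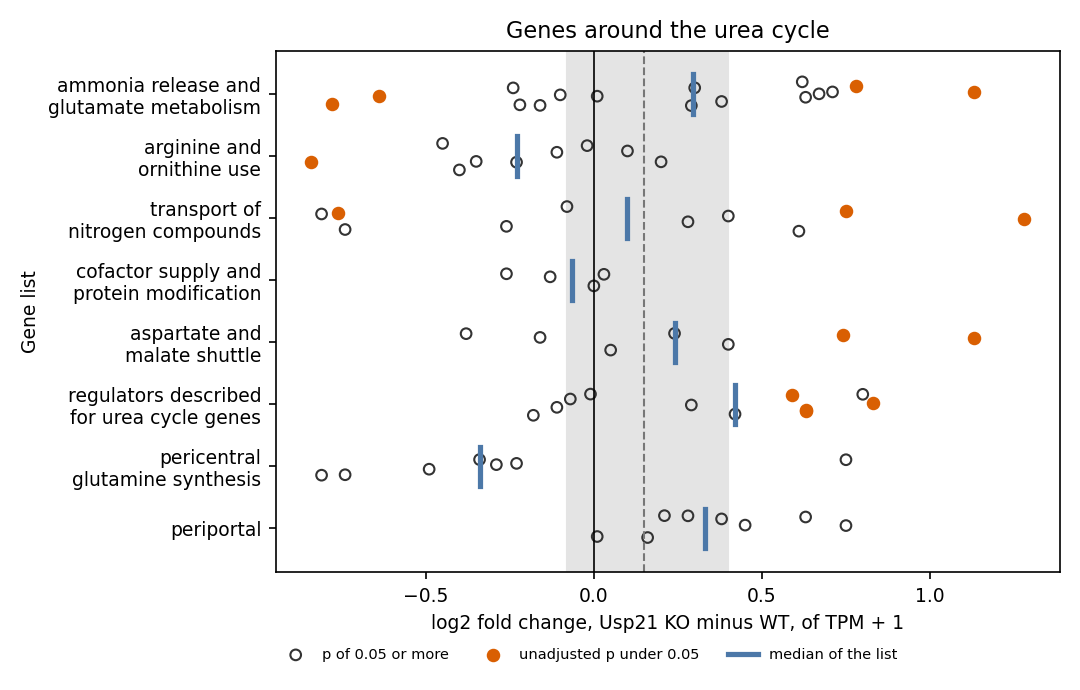
log2 fold change (*Usp21* KO minus WT) of TPM + 1 for each tested gene of the 8 lists, with genes at an unadjusted p under 0.05 in orange, others open, and a blue bar at the median of the list. Points are spread vertically for legibility. The grey band is the interquartile range of all tested genes (-0.08 to 0.40) and the dashed line their median (0.15). The list medians run from -0.34 (pericentral) to 0.42 (regulators), and those values were -0.64 to -0.13 and 0.15 to 0.54 with a library left out.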

How the data were processed

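The authors estimated TPM per gene with salmon and deposited it for 35739 genes, with a log2(TPM + 1) copy. Per the labels, processing used mm10 with Salmon, HTSeq, edgeR, deepTools and Partek, with versions not given in the sources used here. The authors also deposited TMM-normalized CPM, a count-based signal for 55335 genes, and a log2 form of it. Its values were whole multiples of the smallest value above 0 of each library, taken as 1 read (100.0% within 0.02 reads). This share includes zeros, and 50189 genes were at 0 in every library. The multiples summed to 102898 to 148164 reads per library. These are only the reads counted for CPM, where 428 of 682 genes with at least 100 TPM in each library were at 0. They do not give the depth behind the TPM. A count of 0 allows up to 3 reads (20.0 to 27.7 CPM, counting error only). TPM keeps no depth. A total of 0 columns of the 4 tables were left unused.

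Genes whose mean reached 1 TPM (9581) were fitted on log2(TPM + 1) with limma 3.58.1 in R 4.3.3 (lmFit, eBayes with trend, prior degrees of freedom 3.62), two-sided, with Benjamini-Hochberg adjustment. Fold changes on this scale understate low genes. An exact permutation test of 2 against 2 cannot go below p = 0.333. "Higher" and "lower" refer to the fitted log2 fold change. Scripts were tested on simulated data.

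The members and lists were chosen with earlier results of these data known. Named genes were the 8 members, *Usp21*, from each list the genes at p under 0.05 or, where fewer than 3, the most abundant up to 3, and the 5 nearest profiles. A gene that this rule names is not reported here. Alternatives were pseudocounts of 0.1 and 5, no filter (genes above 0 in a library) and a mean of 5 TPM or more, 2 scalings, unmoderated variances, the CPM table with limma, edgeR 4.0.16 and DESeq2 1.42.0, and each library left out.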

Additional observations from a re-analysis of the deposited data

How the results depend on the processing

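No paired analysis was possible because WT and KO share only replicate number 3. Among 64 values of the members' log2 fold changes under TPM alternatives that can move them (pseudocounts, scalings, libraries left out), 56 kept their direction and 8 reversed. Reversed values were -0.13 (upper quartile scaling) and -0.03 (10 most abundant genes left out) for *Arg1* and -0.03 (upper quartile scaling) for *Ass1*. Leaving out each library gave -0.40 to 0.41 for *Arg1* (-0.00 without WT replicate 2), -0.40 to 0.62 for *Ass1*, -0.05 to 0.54 for *Cps1* and -0.35 to 0.64 for *Nags*, with the lowest value in each case without KO replicate 1. The members' median of 0.13 ran from -0.30 without KO replicate 1 to 0.58 without KO replicate 3. The count of members at an unadjusted p under 0.05 (1) became 0 with upper quartile scaling or unmoderated variances. The median of all tested genes was 0.08 without KO replicate 1 and 0.22 without KO replicate 3. In a fit with a library left out, the lone library is assumed to vary like the other genotype. Genes with an adjusted p under 0.05 numbered 8. They were 4 with no filter (15061 genes), 0 with unmoderated variances, and, over 5146 genes of the CPM table, 1 with limma, 1 with DESeq2 and 12 with edgeR on recovered reads, and 0 to 0 with each library left out (limma). At an unadjusted p under 0.05, unmoderated variances gave 638 higher and 168 lower, and the fits without a library 373 to 993 higher and 139 to 249 lower. Of genes at an unadjusted p under 0.05, 80.6% were higher in KO, and 56% with upper quartile scaling. The causes were not tested. The CPM table gave no median or count of members, since 7 of 8 had at most 3 reads in each library. It also listed 428 of 682 genes with at least 100 TPM in each library at 0. Its counts of genes therefore cannot show how the TPM calls depend on the processing.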

Other observations

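The read-count table held almost none of the members' signal. *Ass1*, *Slc25a13* and *Slc25a15* were at 0 reads in all 4 libraries, *Cps1* and *Otc* had 1 read in a single library, *Arg1* 1 read in WT replicate 2 and in KO replicate 1, and *Asl* 2 reads in WT replicate 3 and 1 in KO replicate 1. *Nags* had 2, 0, 6 and 0 reads (WT 2, WT 3, KO 1 and KO 3). *Gm11586*, the antisense gene over the start of *Nags*, had 23, 18, 32 and 16 reads, or 177, 165, 214 and 148 CPM. Of 682 genes with at least 100 TPM in each library, the CPM table listed 428 at 0 in each library. Which setting of the counting gave this was not tested.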
